A study of Mus musculus with 16 samples.

Results

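Tcf7, Lef1, Klf2, Klf3, Foxo1, Satb1, S1pr1, Ccr7 and Il7r are 9 genes of T cell quiescence, memory and lymph node homing. They were picked by symbol from the 23337 genes counted in each library, with earlier differences between these same libraries in view, so their differences between mimics are given here as a description. All 9 were among the 12952 genes tested, and the question was whether the homing and survival receptors followed the transcription factors Tcf7 and Klf2.

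The study gave microRNA mimics, which are synthetic double-stranded microRNAs, to mouse CD4+ T cells without a gene that most microRNAs need for their making. There were 4 libraries each for the miR-23a mimic, the miR-24 mimic, the miR-27a mimic and a control mimic of unstated sequence. Cells of every group, the control group included, came from C57BL/6 mice in which a Cd4-cre transgene, active in T cells, deletes floxed Dgcr8, a gene needed for microRNA processing, and which also lack Tbx21, the gene of the T helper 1 factor T-bet. CD4+ cells from spleen and lymph nodes were activated with antibodies to CD3 and CD28 for 3 days (IL-4 at 10 U/ml) and then kept for 2 days in 20 U/ml of IL-2. Mimic at 500 nM was transfected on day 1 and on day 4, and 150000 to 800000 live RosaYFP+ CD4+ cells, which carry the reporter of Cre activity, were sorted per sample. The age of the mice and the mouse behind each library are not given. The series text speaks of at least biologic triplicates and does not tie libraries to mice, so p-values measure only the spread between libraries, which may be technical.

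In resting naive and memory T cells a small set of transcription factors keeps the cell quiescent and circulating. FOXO1 sits near the top of this set and promotes transcription of Klf2, Il7r and Ccr7. KLF2 promotes S1pr1, whose product lets a T cell leave lymph nodes, while TCF-1, the product of Tcf7, and its relative LEF-1 maintain the naive and memory programmes. Activation through the antigen receptor lowers most of these genes, and the level that returns afterwards differs between effector and memory cells.

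Reads assigned to genes numbered 2120408 to 13714841 in 15 libraries. Control replicate 1 held 51474, so 1 read there stood for 16.3 CPM, the count scaled to a library size shared by all, and 3 reads for 48.8 CPM. Dgcr8 itself read 32.5 to 58.4 CPM in the 15 deeper libraries and 114 CPM in control replicate 1, but counts over the whole gene do not show whether the floxed part is deleted. T cell markers (Cd3d, Cd3e, Cd3g, Cd4, Cd5, Cd2, Thy1, Cd28 and Lck) summed to 3150 to 5300 CPM per library, and all 9 were tested. In the same libraries the B cell list stayed at 0 to 18.4 CPM and the myeloid list at 0 to 17.8 CPM. The dendritic cell list stayed at 0 to 30.0 CPM. The CD8 and NK cell list summed to 0 to 35.7 CPM, with its gene Cd8b1 reaching 34.8 CPM. Single genes of the lists for other cells, Ncr1, Col3a1, Lyve1 and Hba-a1, were at 0 in every library. In RNA from sorted populations, fewer cells of a type and less RNA per cell cannot be told apart.

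The sequences that bear on the 3 mimics are their seeds, the bases that pair with target messengers. Arm and sequence of the mimics are not in the labels, so the 3p arms of the mouse microRNAs from RefSeq (GRCm38.p6) are printed as the assumed mimics, with bases 2 to 8 in capitals. The 3 seeds differ from one another. Mir23a lies at chr8:84208563-84208583, Mir27a at chr8:84208727-84208747 and 1 of the copies of miR-24, Mir24-2, at chr8:84208875-84208896, all on the plus strand, and the other copy, Mir24-1, at chr13:63301251-63301272, also on the plus strand.
mmu-miR-23a-3p: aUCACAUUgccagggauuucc
mmu-miR-24-3p: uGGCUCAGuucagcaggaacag
mmu-miR-27a-3p: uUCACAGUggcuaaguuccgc

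For each gene the longest 3-prime UTR in the annotation (GENCODE M21, GRCm38) was searched for matches to these seeds. An 8mer pairs with bases 2 to 8 and ends in A opposite base 1, and the 7mer sites lack 1 end of it. The sites below are the miR-24 matches in the genes that fell with the miR-24 mimic in at least 1 comparison and the 8mers in the other members, written in the sense of the messenger with the match in capitals. S1pr1 held an 8mer (chr3:115711513-115711520, minus strand). Tcf7 held 2 7mers 16 bases apart (chr11:52252727-52252733 and chr11:52252711-52252717, minus strand), and Klf2 held 1 7mer (chr8:72321526-72321532, plus strand). Satb1, Foxo1 and Klf3 held 2, 1 and 1 miR-24 7mers, which are not shown. With all libraries in the fit, edgeR called Satb1 and Klf3 in no comparison of miR-24, and Foxo1 only with a replicate block. Klf3 held an 8mer for miR-23a (chr5:64829396-64829403) and one for miR-27a (chr5:64832805-64832812), both on the plus strand. Satb1 held 2 8mers for miR-23a (chr17:51739236-51739243 and chr17:51738899-51738906, minus strand), and Il7r held 1 for miR-27a (chr15:9506308-9506315, minus strand).
S1pr1 miR-24 8mer: tgattttgcaCTGAGCCAaaggtctagc
Tcf7 miR-24 7mer-A1: aaactcttttTGAGCCAaacttaaccc
Tcf7 miR-24 7mer-m8: aaacttaaccCTGAGCCttgaaaaaca
Klf2 miR-24 7mer-A1: tctgctacttTGAGCCAtaatttgccc
Klf3 miR-23a 8mer: agacctaaagAATGTGAAcattattttt
Klf3 miR-27a 8mer: gtcatgtcaaACTGTGAAcataaatttg
Satb1 miR-23a 8mer, first: aggaaaagaaAATGTGAAacacaattta
Satb1 miR-23a 8mer, second: ttatgcaattAATGTGAAaataattgat
Il7r miR-27a 8mer: atgtccaaatACTGTGAAatataatgag

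Among the 9 members, 5 had a site of any of these kinds for miR-23a, 6 for miR-24 and 6 for miR-27a, against 25.4%, 26.9% and 29.9% of the 11013 tested genes with an annotated UTR. An 8mer was found in 2 members (miR-23a), 1 member (miR-24) and 2 members (miR-27a), and in 7.29%, 8.90% and 6.63% of all those genes. The members' UTRs ran from 737 bases (Klf2) to 6240 bases (Foxo1), and the median over all those genes was 1234 bases. Ccr7 had no match to any of the 3 seeds. A match is a description of the sequence and does not show that the mimic acted there.

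Tcf7 had the largest log2 difference of the 9 genes in miR-24 against control. In replicate order it had 1112, 542, 675 and 270 CPM in miR-23a libraries, 116, 160, 98.5 and 58.4 CPM in miR-24 libraries, 572, 789, 357 and 307.5 CPM in miR-27a libraries, and 505, 951, 613.5 and 325 CPM in control libraries. The highest miR-24 library was below the lowest library of each other group. Tcf7 averaged 649.7 ± 351 CPM with miR-23a, 108 ± 42.2 with miR-24, 506 ± 220.5 with miR-27a and 598.5 ± 263 with the control mimic (SD, n = 4 each). In edgeR's quasi-likelihood test over all genes it fell with miR-24 by 2.48 ± 0.44 on the log2 scale against control (Benjamini-Hochberg adjusted p = 0.0104). The log2 difference of miR-24 was -2.59 ± 0.44 against miR-23a (edgeR adjusted p = 0.00789) and -2.22 ± 0.43 against miR-27a (edgeR adjusted p = 0.0221), and neither of these uses a control library. With miR-23a and miR-27a against control its log2 differences were 0.10 ± 0.42 and -0.26 ± 0.42, and edgeR did not call them (adjusted p 0.953 and 0.810).

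**Figure D1:**
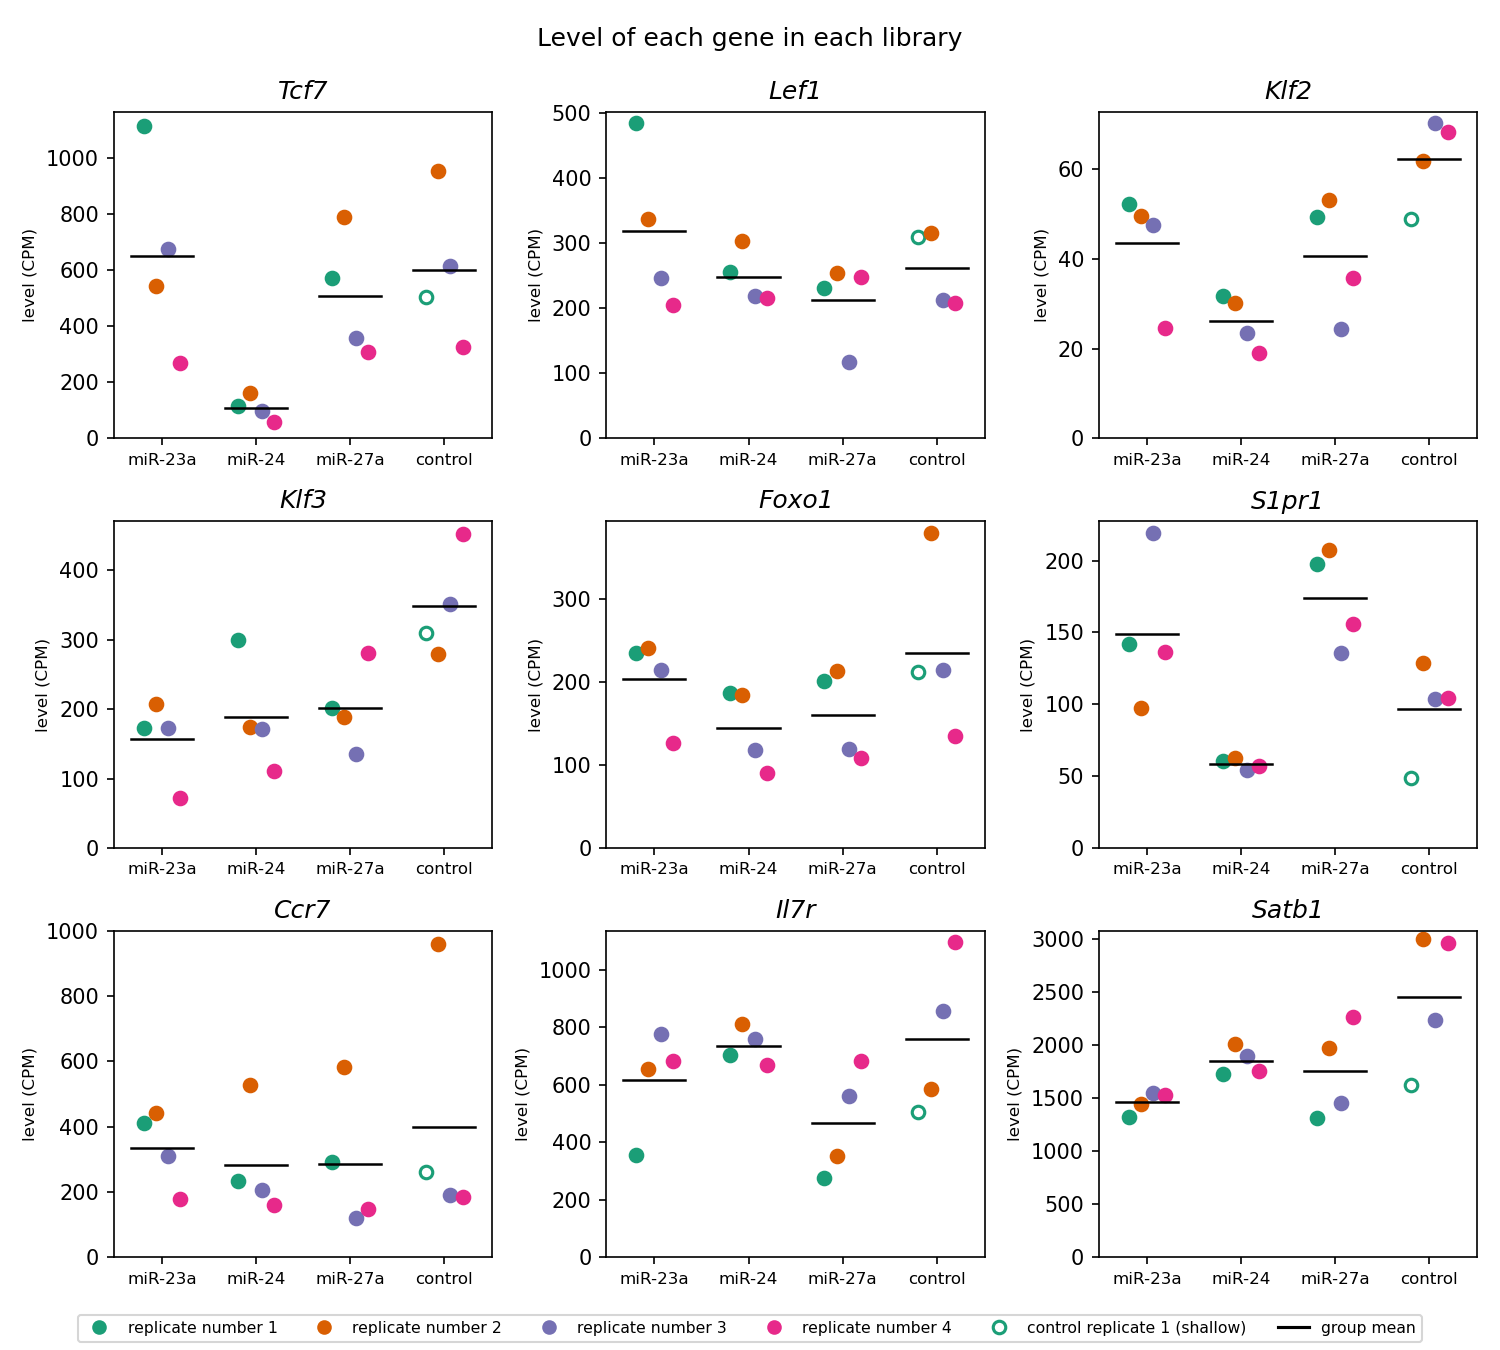
Level of each of the 9 genes in CPM (vertical axes, from 0) in each library of the miR-23a, miR-24, miR-27a and control groups; points are libraries coloured by replicate number, the open point is the shallow control replicate 1 and bars are group means of 4 libraries. The miR-24 points for Tcf7 lie between 58.4 and 160 CPM, below all points of the other 3 groups, and those for S1pr1 between 54.5 and 62.5 CPM.

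Tcf7 was lower with miR-24 in every set of libraries that share a replicate number. In number order, the log2 differences of miR-24 against control were -2.12, -2.57, -2.64 and -2.47. Against miR-27a they were -2.30, -2.30, -1.85 and -2.39, and against miR-23a -3.26, -1.76, -2.77 and -2.20. All 12 were negative. Leaving out each of the 8 libraries of a comparison in turn kept the call in 8 of 8 fits against control (edgeR adjusted p 0.0150 to 0.0490) and in 8 of 8 against miR-23a. Against miR-27a the call held in 3 of 8 fits, and was lost without miR-24 replicate 2 (edgeR adjusted p = 0.0631), 3 (0.0938) or 4 (0.0630) or miR-27a replicate 1 (0.0558) or 2 (0.0811), with log2 differences of -2.48 to -1.93 over the 8 fits. With replicate number as a block, a term that takes out what same-numbered libraries share, the call against miR-27a held in 8 of 8 fits (edgeR adjusted p 0.000155 to 0.0019). By the pairing check given below, which asks that all 4 same-numbered correlations pass 0.1, the numbers did not pair miR-24 with miR-27a or control. In number order they were 0.315, 0.512, 0.727 and -0.0072 with miR-27a and 0.170, 0.353, 0.460 and 0.0304 with control, so 3 passed in each. Their means were 0.387 and 0.253, against -0.124 and -0.0738 between libraries of unlike number. The block is an alternative there.

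Lef1, whose product binds the same DNA motif as TCF-1, was not called in any comparison. It had 484, 336, 246.5 and 205 CPM in miR-23a libraries, 255, 303, 218 and 216 CPM in miR-24 libraries, 231, 254, 118 and 247 CPM in miR-27a libraries, and 309, 315.5, 213 and 207.7 CPM in control libraries. All 4 groups overlapped. The log2 differences against control were 0.31 ± 0.28 (miR-23a), -0.04 ± 0.28 (miR-24) and -0.27 ± 0.28 (miR-27a), none of which edgeR called (adjusted p 0.700, 0.969 and 0.685).

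Klf2 was also lowest with miR-24. It had 52.3, 49.6, 47.5 and 24.6 CPM in miR-23a libraries, 31.7, 30.1, 23.5 and 19.1 CPM in miR-24 libraries, 49.4, 53.1, 24.3 and 35.8 CPM in miR-27a libraries, and 48.8, 61.9, 70.35 and 68.3 CPM in control libraries. The first control value rests on 3 reads, for which the exact Poisson 95% interval is 10.1 to 143 CPM and covers counting error only. All miR-24 libraries were below all control libraries, while miR-24 overlapped miR-23a and miR-27a. Klf2 averaged 43.5 ± 12.8 CPM with miR-23a, 26.1 ± 5.89 with miR-24, 40.6 ± 13.2 with miR-27a and 62.3 ± 9.69 with the control mimic (SD, n = 4 each). It fell with miR-24 by 1.32 ± 0.29 on the log2 scale against control (edgeR adjusted p = 0.0351).

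The Klf2 call held in 2 of 8 fits without 1 library, with log2 differences of -1.43 to -1.20, and the edgeR adjusted p was 0.0730, 0.129 and 0.105 without miR-24 replicate 2, 3 or 4 and 0.0550, 0.127 and 0.0920 without control replicate 2, 3 or 4. With the replicate number as a block, an alternative here because the numbers did not pair these groups, it held in 7 of 7 such fits (-1.61 to -1.23, edgeR adjusted p 0.00248 to 0.0338). Without the shallow control replicate 1 the log2 difference was -1.36 with an edgeR adjusted p of 0.0417. With only the miR-24 and control libraries in the fit, the log2 difference was -1.31 and the edgeR adjusted p 0.0626. The other mimics gave -0.58 ± 0.29 (miR-23a) and -0.69 ± 0.29 (miR-27a) against control, and miR-24 gave -0.74 ± 0.28 against miR-23a and -0.63 ± 0.28 against miR-27a. None of these 4 was called (edgeR adjusted p 0.459, 0.285, 0.244 and 0.340). Same-numbered differences of miR-24 were -0.63, -0.81, -0.05 and -0.90 against miR-27a and -0.72, -0.72, -1.01 and -0.36 against miR-23a, all below 0. Limma voom with sample weights called Klf2 lower with miR-24 than with miR-27a (-0.95, adjusted p = 0.0254).

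Klf3, a mostly repressive relative of KLF2, was lower on average with every mimic than with the control. It had 173, 207, 173 and 72.7 CPM in miR-23a libraries, 299.6, 174.5, 172 and 110 CPM in miR-24 libraries, 202, 189, 136 and 280 CPM in miR-27a libraries, and 309, 280, 351 and 452 CPM in control libraries. Every miR-23a library was below every control library, and the other groups overlapped the control. The log2 differences from control were -1.17 ± 0.33 (miR-23a), -0.90 ± 0.33 (miR-24) and -0.80 ± 0.33 (miR-27a), and none passed 0.05 (edgeR adjusted p 0.258, 0.223 and 0.279).

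Foxo1 had 235, 241, 214 and 126 CPM in miR-23a libraries, 186.5, 184, 118 and 90.6 CPM in miR-24 libraries, 201, 214, 119 and 108 CPM in miR-27a libraries, and 212, 379, 214 and 135 CPM in control libraries. All groups overlapped, and within each group the library numbered 4 was the lowest. The log2 difference from control was -0.22 ± 0.33 (miR-23a), -0.72 ± 0.33 (miR-24) and -0.57 ± 0.33 (miR-27a), without a call (edgeR adjusted p 0.83, 0.341 and 0.438). With replicate number as a block, edgeR called Foxo1 with miR-24 against control (log2 difference -0.73, adjusted p = 0.0293), a call that held in 1 of 7 such fits without 1 library, the one without miR-24 replicate 1 (adjusted p 0.0118 to 0.131 over the 7).

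Satb1 encodes a chromatin organiser of T cells. It had 1327, 1448, 1552 and 1532 CPM in miR-23a libraries, 1729, 2012, 1901 and 1756 CPM in miR-24 libraries, 1317, 1969, 1458 and 2268 CPM in miR-27a libraries, and 1628, 2996, 2241 and 2965 CPM in control libraries. All miR-23a libraries lay below all control and all miR-24 libraries. The log2 difference from control was -0.75 ± 0.22 (miR-23a), -0.42 ± 0.22 (miR-24) and -0.50 ± 0.22 (miR-27a), and edgeR called none (adjusted p 0.263, 0.406 and 0.312).

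Among the receptors, S1pr1 stood apart. Its product senses sphingosine 1-phosphate and lets T cells leave lymph nodes. It had 142, 97.2, 219 and 136 CPM in miR-23a libraries, 60.6, 62.5, 54.5 and 56.8 CPM in miR-24 libraries, 198, 208, 135 and 156 CPM in miR-27a libraries, and 48.8, 129, 104 and 104.5 CPM in control libraries, the first of these again from 3 reads (95% interval 10.1 to 143 CPM). The 4 miR-24 libraries were close together and below every miR-23a and miR-27a library, and every miR-27a library was above every control library. Without control replicate 1 the control average was 112 ± 14.0 CPM (SD, n = 3), and all 3 remaining control libraries were above all miR-24 libraries.

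S1pr1 was lower with miR-24 than with miR-27a (log2 difference -1.57 ± 0.25, edgeR adjusted p = 0.00723) and than with miR-23a (-1.34 ± 0.24, edgeR adjusted p = 0.00990). Both calls held in 8 of 8 fits without 1 library, with edgeR adjusted p of 0.0119 to 0.0420 and 0.0111 to 0.0493. All same-numbered pairs were negative, with -1.70, -1.73, -1.31 and -1.45 for miR-24 against miR-27a and -1.23, -0.64, -2.00 and -1.26 for miR-24 against miR-23a. Against control the picture was split between the mimics and no difference was called. The log2 difference from control was 0.50 ± 0.25 (miR-23a), -0.85 ± 0.25 (miR-24) and 0.72 ± 0.25 (miR-27a) (edgeR adjusted p 0.467, 0.128 and 0.207). For miR-24 the same-numbered differences from control were 0.31, -1.04, -0.93 and -0.88, of which the first uses the 3 reads of control replicate 1. Without that library the value was -0.94 (edgeR adjusted p = 0.0786), and with the replicate number as a block besides it was -0.96 (edgeR adjusted p = 0.0404).

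Ccr7, the receptor that guides T cells into lymph nodes, varied widely within groups. It had 412, 443, 310 and 178 CPM in miR-23a libraries, 235, 528, 207.5 and 160 CPM in miR-24 libraries, 291, 582, 120 and 147 CPM in miR-27a libraries, and 260, 959, 192 and 186 CPM in control libraries. The library numbered 2 was the highest in every group. The log2 differences from control were -0.29 ± 0.59, -0.54 ± 0.59 and -0.53 ± 0.59 with miR-23a, miR-24 and miR-27a, and none was called (edgeR adjusted p 0.882, 0.724 and 0.705).

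Il7r encodes the alpha chain of the IL-7 receptor, which carries a survival signal. It had 355.5, 656, 778 and 683 CPM in miR-23a libraries, 703, 810, 760 and 671 CPM in miR-24 libraries, 276, 352, 560 and 684 CPM in miR-27a libraries, and 505, 587, 857 and 1096 CPM in control libraries. All groups overlapped the control. The log2 difference from control was -0.32 ± 0.30 (miR-23a), -0.07 ± 0.30 (miR-24) and -0.72 ± 0.30 (miR-27a), without a call (edgeR adjusted p 0.703, 0.946 and 0.283). In miR-24 against miR-27a libraries it was 0.65 ± 0.30 (edgeR adjusted p = 0.351), and with the replicate number as a block it was called higher (0.76, edgeR adjusted p = 0.0485). That call held in 2 of 8 such fits without 1 library, those without miR-24 replicate 4 or miR-27a replicate 4 (edgeR adjusted p 0.00997 to 0.203 over the 8).

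**Figure D2:**
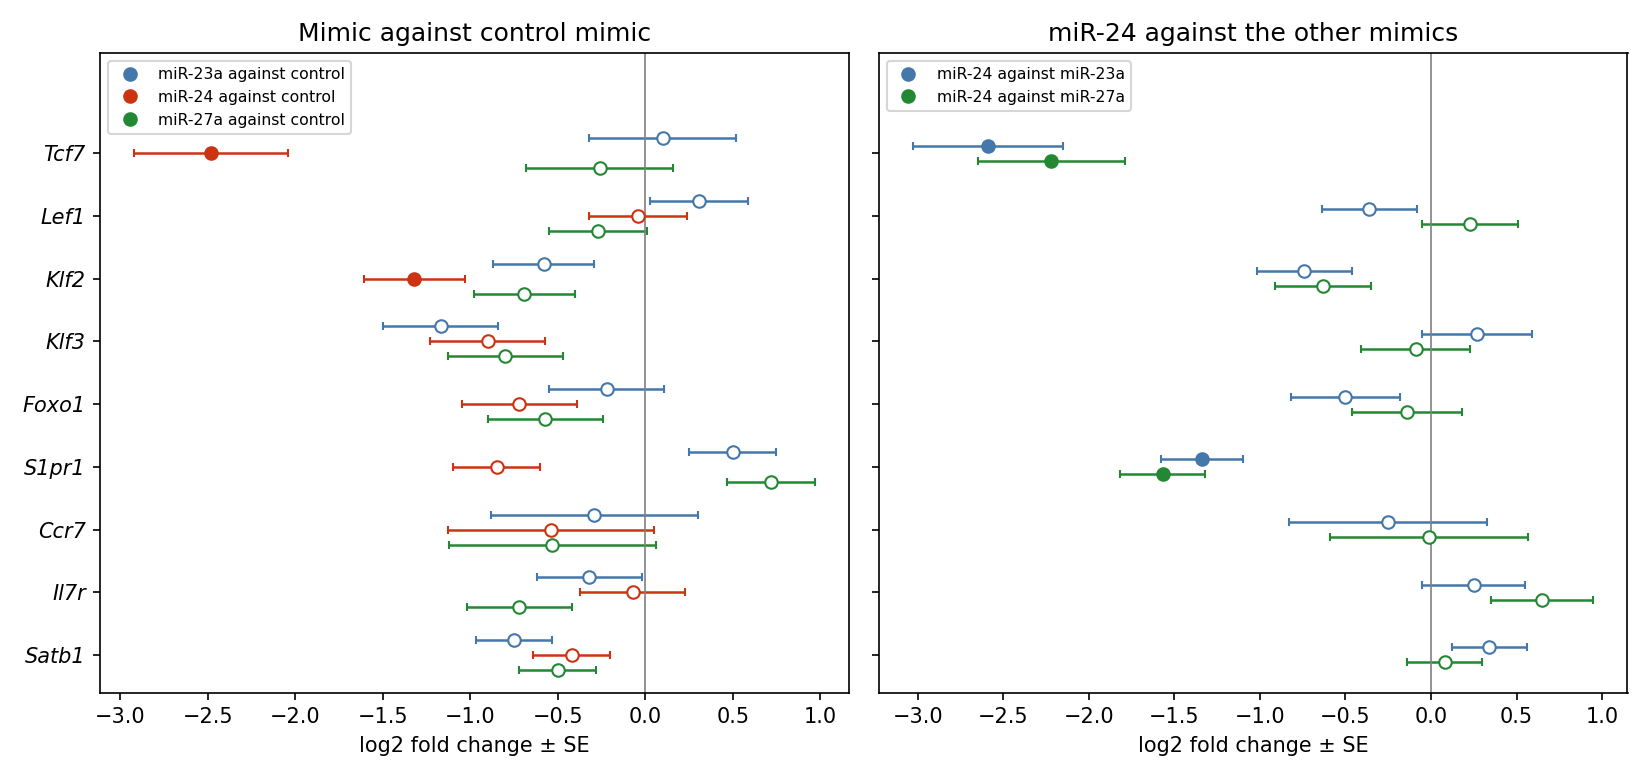
Log2 fold change with its standard error (horizontal axes) of the 9 genes for each mimic against control (left) and between mimics (right). Values are from edgeR over 16 libraries, with the standard error worked back from the F statistic. Filled points passed an adjusted p of 0.05. With miR-24 against control Tcf7 (-2.48) and Klf2 (-1.32) passed, and between mimics Tcf7 and S1pr1 passed in both comparisons of miR-24.

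Counted over the members, edgeR called 2 of 9 in miR-24 against control, Tcf7 and Klf2, both lower, where 0.849% of all genes tested were called and 0.556% were called lower. It called 2 of 9 in miR-24 against miR-27a (0.880% of all genes called, 0.602% lower) and 2 of 9 in miR-24 against miR-23a (1.10% called, 0.625% lower), Tcf7 and S1pr1 in each. It called 0 of 9 in miR-23a against control (0.131% of all genes), in miR-27a against control (0.170%) and in miR-23a against miR-27a (0.548%). The members were chosen with these comparisons known, so nothing is read from the shares. With the replicate number as a block the same counts were 3, 3, 2, 0, 0 and 0, where edgeR called 4.56%, 4.42%, 5.38%, 0.425%, 3.07% and 2.95% of all genes. Groups did not overlap, with the mimic named first lower, for 2 of 9 members in miR-24 against control (2.74% of all genes), miR-24 against miR-27a (5.47%), miR-24 against miR-23a (4.78%) and miR-23a against control (2.02%). They did not overlap, with it higher, for S1pr1 in miR-27a against control (4.26% of all genes) and for Satb1 in miR-24 against miR-23a (3.76%).

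The fitted log2 difference from control was below 0 for 6 of 9 members (miR-23a), 9 of 9 (miR-24) and 8 of 9 (miR-27a). Of all 12952 genes tested, 5978, 6011 and 6320 were below 0. The members' medians were -0.29, -0.72 and -0.53, beside 0.05, 0.05 and 0.02 over all genes tested. With miR-24, Lef1 (-0.04) turned to 0.03 in DESeq2 and Il7r (-0.07) to 0.04 with the replicate block. The members were chosen with these comparisons known, so nothing is read from the counts. The 3 comparisons share the same 4 control libraries and are not independent of one another. Between mimics, the members' median was -0.36 for miR-24 against miR-23a, -0.09 for miR-24 against miR-27a and 0.24 for miR-23a against miR-27a. Per kilobase of exon, in the 3 deeper control libraries, the order of mean levels was Tcf7 (240 CPM per kb), Il7r (239), Satb1 (238), Ccr7 (225), Lef1 (70.0), Klf3 (67.0), S1pr1 (36.9), Klf2 (36.2) and Foxo1 (28.0). Neighbours among the first 4, Lef1 and Klf3, and S1pr1 and Klf2 differed by less than their spread between libraries. With miR-24 Tcf7 stood at 41.3 CPM per kb, below Lef1 at 70.8 CPM per kb.

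The group with the lowest mean level can be read beside the seed matches. It was miR-24 for Tcf7, Klf2, Foxo1, S1pr1 and Ccr7, miR-27a for Lef1 and Il7r, and miR-23a for Klf3 and Satb1. Of the 4 members with an 8mer, S1pr1, Satb1, Il7r and Klf3 were each lowest with a mimic whose 8mer they hold, Klf3 holding one for 2 mimics. Only S1pr1 among these 4 was called in a comparison between mimics without a block. Tcf7 and Klf2, called with miR-24 against control, hold miR-24 7mers. So do Satb1, Foxo1 and Klf3. With all libraries in the fit, edgeR called Foxo1 in that comparison only with the block, and Satb1 and Klf3 neither with nor without it. The members were chosen with these differences known, and how often all genes with an 8mer are lowest with that mimic was not computed. Several of the ranks rest on differences within the spread between libraries. The means of Ccr7, which holds no match, were 282.7 ± 167 CPM with miR-24 and 285 ± 212 CPM with miR-27a (SD, n = 4 each). Lef1 had a lower mean but a higher median with miR-27a than with miR-24 (239 and 236.5 CPM), its lowest miR-27a library being at 118 CPM. With 1 library left out, the log2 difference of miR-24 ranged from -0.30 to 0.02 against miR-27a for Foxo1 and from -0.04 to 0.46 against miR-23a for Klf3.

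**Figure D3:**
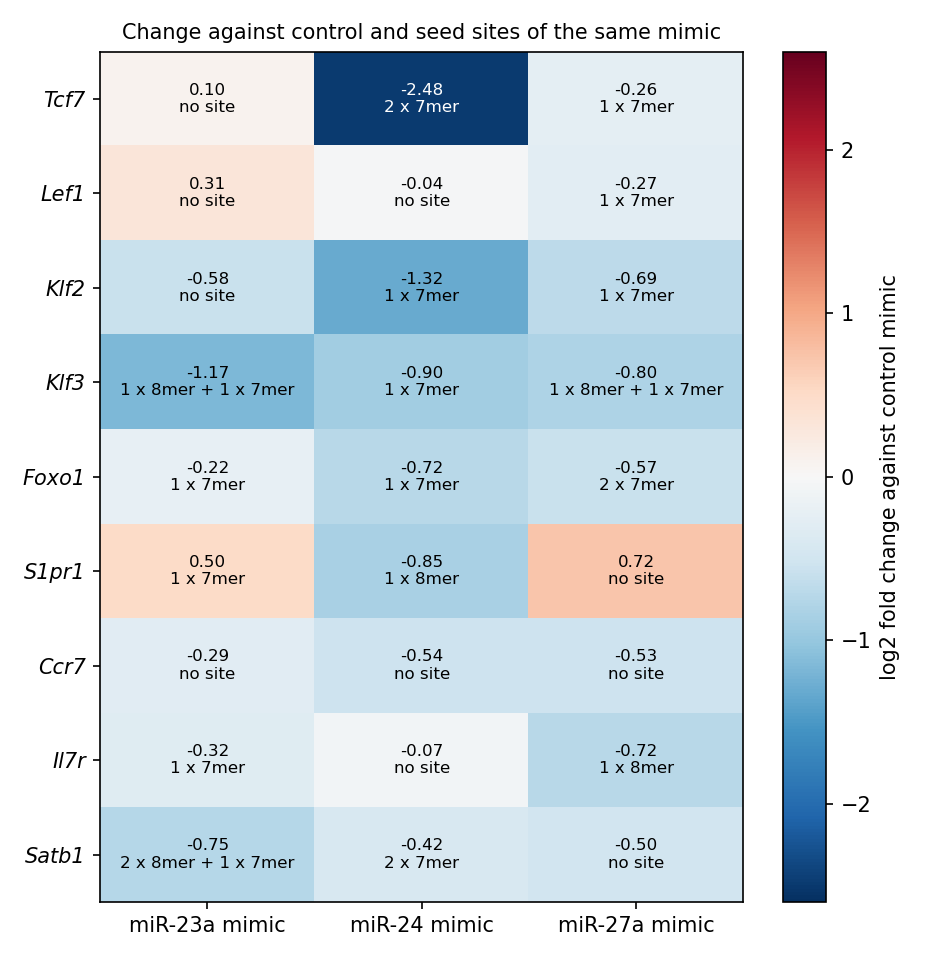
Log2 fold change against the control mimic (colour) of each gene under each mimic, with the number and kind of seed sites of that mimic in the gene's 3-prime UTR written in each cell. The darkest cell is Tcf7 with miR-24 (-2.48, 2 7mers), and S1pr1 has opposite signs with miR-24 (-0.85, 1 8mer) and miR-27a (0.72, no site).

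Whether receptors followed the factors was asked within groups, from each library's deviation from its group mean in log2-CPM, so that differences between mimics did not enter. Control replicate 1 was left out, which leaves 15 libraries, and 18 relations were computed, of which the 16 of Tcf7 and Klf2 with the other 8 members are described. Their p-values come from 100000 permutations within groups, and limma's test over all genes with group in the model gives the adjusted p. Both treat libraries of a group as exchangeable and ignore what same-numbered libraries share, so these p-values may be too small. The permutation p-values are not adjusted for the 18 relations, and none was computed with the number removed. Limma with the number as a block is given further below.

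Of the receptors, Ccr7 deviated with Tcf7. Pearson's r was 0.82 (permutation p = 0.00114) and Spearman's rho 0.81 (permutation p = 0.00270), r was 0.79 without the 2 libraries farthest from the middle of Tcf7 (miR-23a replicate 4 and control replicate 4), and limma gave an adjusted p of 0.00972. Of all genes, 1.15% had an r with Tcf7 at least as high, or 0.795% once the mean of each replicate number was removed. S1pr1 had an r of 0.44 with Tcf7 (permutation p = 0.193), a rho of 0.64 (permutation p = 0.0368) and a limma adjusted p of 0.497, and 14.7% of all genes had an r at least as high, or 3.94% once the mean of each replicate number was removed. Without the 2 farthest libraries its r was 0.49. Il7r ran the other way, with an r of -0.64 (permutation p = 0.0337), a rho of -0.67 (permutation p = 0.0289), -0.61 without the 2 farthest libraries and a limma adjusted p of 0.136.

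Among the factors, Foxo1 deviated most closely with Tcf7, with an r of 0.90 (permutation p = 0.00034), a rho of 0.86 (permutation p = 0.00083), 0.84 without the 2 farthest libraries and a limma adjusted p of 0.00539. Of all genes, 0.224% had an r at least as high, or 12.6% once the mean of each replicate number was removed. Klf2 (r = 0.72, permutation p = 0.00765; rho = 0.74, permutation p = 0.00585) and Lef1 (r = 0.70, permutation p = 0.0127; rho = 0.75, permutation p = 0.00907) came next, with limma adjusted p of 0.10 and 0.0928. For Klf2 and Lef1 the shares of genes were 3.05% and 3.58%, or 16.8% and 0.764% with the number's mean removed. Klf3 (r = 0.32, permutation p = 0.327) and Satb1 (r = -0.11, permutation p = 0.707) gave no relation that passed. With both farthest libraries left out together, limma called 0 members with Tcf7.

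With Klf2, limma called 0 members. The highest r was that of Klf3, 0.75 (permutation p = 0.0119), with a rho of 0.52 (permutation p = 0.0844), 0.42 without the 2 libraries farthest from the middle of Klf2 (miR-23a replicate 4 and miR-27a replicate 3) and a limma adjusted p of 0.0864. It rests in large part on those libraries, as does that of Lef1, 0.72 with all 15 libraries and 0.27 without them. For the receptors, r with Klf2 was 0.60 for Ccr7 (permutation p = 0.0162, rho 0.68, 0.43 without the 2 farthest), 0.35 for S1pr1 (permutation p = 0.326) and -0.40 for Il7r (permutation p = 0.247). The limma adjusted p of these were 0.159, 0.558 and 0.441. S1pr1 is a known target of KLF2, and 21.5% of all genes had an r with Klf2 at least as high as its own. Without control replicate 2 limma called 4 members with Klf2 (Ccr7, Foxo1, Lef1 and Tcf7), and without control replicate 4 it called 1.

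Some of these genes also moved with the replicate number. Libraries numbered 4 were low for Tcf7 in all 4 groups, by -0.83 on average on the log2 scale (-1.09 to -0.62), for Foxo1 by -0.62 (-0.72 to -0.50) and for Ccr7 by -0.74 (-0.83 to -0.66). Libraries numbered 2 were high for Ccr7 (1.10, range 0.48 to 1.56). S1pr1 showed no such step, with means of 0.08, 0.00, 0.02 and -0.09 over the 4 numbers. With the number's mean removed as well, r with Tcf7 was closer to 0 for Foxo1 (0.44), Klf2 (0.39), Il7r (-0.32) and slightly for Ccr7 (0.77), and higher for S1pr1 (0.62) and Lef1 (0.77), and r with Klf2 was 0.75 for Klf3 and 0.21 for Ccr7. In limma with the number as a block, 0 members and 0 genes of all those tested were called for either factor. Without the block 464 genes were called with Tcf7 (3.58% of those tested), Foxo1 and Ccr7 among them, and 30 with Klf2 (0.232%).

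**Figure D4:**
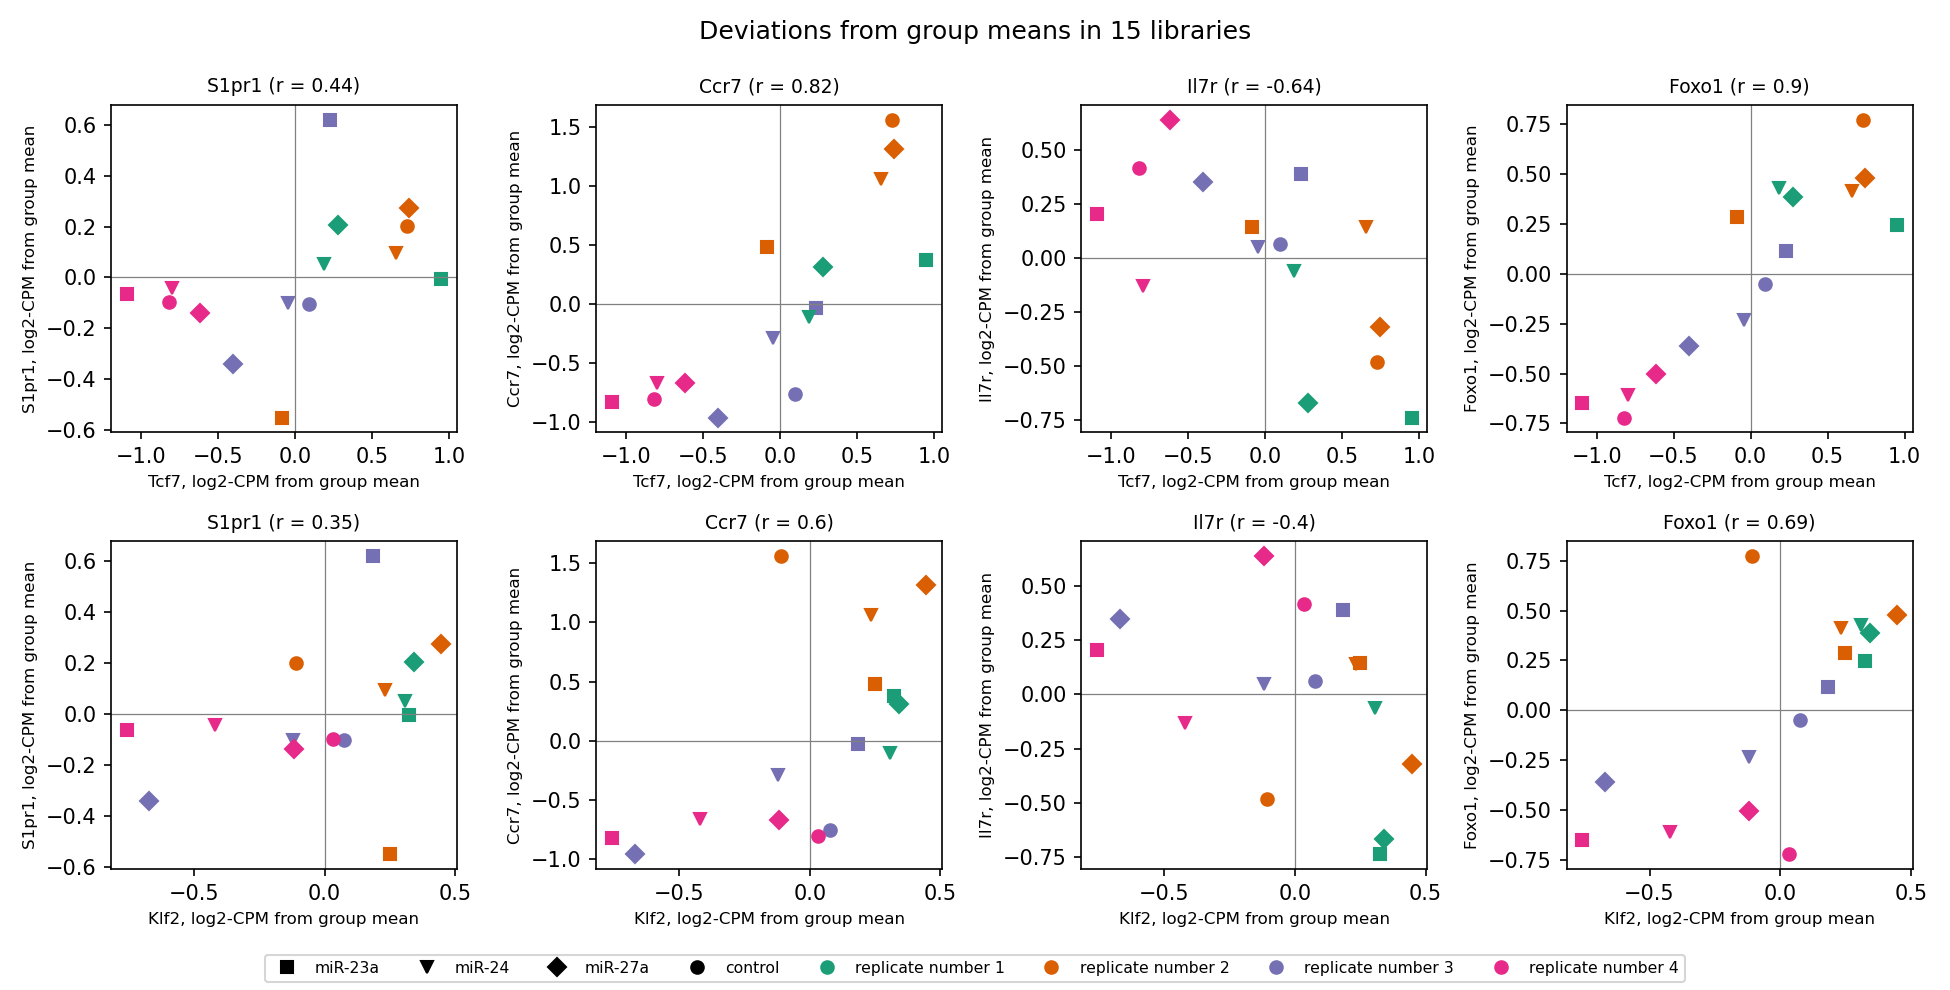
Deviations from group means in log2-CPM of S1pr1, Ccr7, Il7r and Foxo1 (vertical axes) against those of Tcf7 (top row) and Klf2 (bottom row, horizontal axes) in 15 libraries; symbols mark the group and colours the replicate number. Ccr7 runs with Tcf7 (r = 0.82), and S1pr1 has lower r with Tcf7 (0.44) and Klf2 (0.35).

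Across groups and libraries together, the genes with the pattern most like that of Tcf7 over these 15 libraries, by Pearson's r of log2-CPM among 7554 genes, were Fam117a (0.93), Msl1 (0.92), Snrk (0.92), Limd2 (0.91) and Dennd1a (0.90). S1pr1 had 0.80 and Klf2 0.79 by the same measure. For Klf2 the most like were Myo6 (0.88), St8sia6, Slamf6, Iqgap2 and Bcl9 (0.86 each). These values mix differences between mimics with those within groups and are a description of likeness.

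Promoters of 7 of the 9 members were in the RefSeq table (GRCm38.p6, 15 annotated starts, each with 250 bases before and 50 after it). They were searched on both strands for a TCF/LEF motif (CTTTGA), a KLF motif (CACCC) and a FOXO motif (TGTTTAC). The KLF letters were in 12 of the 15 and in 57.5% of all 32851 promoters, the TCF/LEF letters in 1 of 15 and 16%, and the FOXO letters in 1 of 15 and 3.65%. The single promoter with the TCF/LEF letters belongs to an internal start of Lef1 (chr3:131156044-131156343, plus strand), and it holds them at 2 places, 180 and 120 bases before the start. The KLF letters were also found in promoters of Tcf7, Lef1, Klf2 and Satb1, at up to 3 places each, and at 5 places in that of Klf3 (chr5:64803271-64803570, plus strand). The FOXO letters were in 1 promoter of Tcf7 (chr11:52282546-52282845, minus strand). Shown are the only member promoter with the TCF/LEF letters and the one with the most KLF places, with the letters in capitals. Within groups, neither Lef1 with Tcf7 nor Klf3 with Klf2 was called by limma. A match shows that the letters are present and nothing about binding.
Lef1 promoter, internal start: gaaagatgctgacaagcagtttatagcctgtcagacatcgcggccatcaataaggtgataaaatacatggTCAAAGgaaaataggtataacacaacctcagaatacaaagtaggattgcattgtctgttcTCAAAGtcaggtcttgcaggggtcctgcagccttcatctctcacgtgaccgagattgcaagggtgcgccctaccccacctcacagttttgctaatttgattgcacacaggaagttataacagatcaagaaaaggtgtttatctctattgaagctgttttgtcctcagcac
Klf3 promoter: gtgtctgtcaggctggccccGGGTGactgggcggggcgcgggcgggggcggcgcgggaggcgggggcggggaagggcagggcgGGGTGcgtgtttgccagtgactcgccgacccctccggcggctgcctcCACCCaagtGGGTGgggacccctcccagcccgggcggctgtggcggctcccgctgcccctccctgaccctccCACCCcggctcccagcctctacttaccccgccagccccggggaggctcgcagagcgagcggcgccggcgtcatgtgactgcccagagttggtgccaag

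The rest of the homing pathway was mostly without calls. Of 16 other homing and egress genes tested, edgeR called 0 with miR-23a, miR-24 or miR-27a against control, and with miR-24 8 had a positive and 8 a negative log2 difference (median 0.03).

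Cd69, whose product binds the S1PR1 protein and removes it from the cell surface, was the 1 gene of the pathway lists that edgeR called. It had 212, 173, 269.9 and 217 CPM in miR-24 libraries and 51.0, 49.8, 125 and 92.1 CPM in miR-27a libraries, with no overlap. It was higher with miR-24 than with miR-27a by 1.44 ± 0.32 on the log2 scale (edgeR adjusted p = 0.0417). S1pr1 messenger was lower in that comparison and also in miR-24 against miR-23a, where Cd69 had a log2 difference of 0.47 ± 0.31 and was not called (edgeR adjusted p = 0.61). Against control its log2 difference was 0.12 ± 0.32 (miR-23a), 0.58 ± 0.32 (miR-24) and -0.86 ± 0.32 (miR-27a) (edgeR adjusted p 0.922, 0.439 and 0.244). With replicate number as a block, and the miR-27a and control libraries so paired, edgeR called Cd69 lower with miR-27a (-0.83, adjusted p = 0.0281). The block also called it higher in miR-24 against control (0.71, edgeR adjusted p = 0.0467; same-numbered differences 1.38, 0.99, 0.34 and 0.40) and in miR-23a against miR-27a (1.06, edgeR adjusted p = 0.00395).

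The other lists of the programme gave no call without the block. Of 15 other quiescence and naive-state regulators, edgeR called 0 in any comparison, and 12 had a negative log2 difference with miR-24 against control (median -0.25). Bach2, a repressor of effector genes, had -0.72 ± 0.29 there (edgeR adjusted p = 0.275), Foxp1 -0.25 ± 0.31 (0.761) and Id3, at a mean of 3.79 CPM with miR-24, 0.21 ± 0.85 (0.945). The medians with miR-24 against control were -0.12 for 12 genes of IL-7 receptor signalling, -0.01 for 16 TCF/LEF partners and Wnt pathway genes, -0.13 for 18 genes of the PI3K, AKT and FOXO pathway, -0.46 for 12 effector-state regulators and -0.24 for 13 other KLF, SATB and S1P receptor genes, all without a call in that fit. Pik3ip1, an inhibitor of PI3K that is high in resting T cells, had -0.15 ± 0.37 (edgeR adjusted p = 0.893).

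With the block, edgeR called 13 genes of the pathway lists in miR-24 against control, where it called 4.56% of all genes tested. The lists held 12 to 18 tested genes each. The replicate numbers of these groups did not pass the pairing check. Lower were the quiescence regulators Bach2 (-0.71, edgeR adjusted p = 0.0406), Zfp36l2 (-0.73, 0.0425) and Runx1 (-0.85, 0.0341), the effector-state regulators Irf4 (-0.64, 0.045) and Myb (-1.10, 0.0289), and Itga4, an integrin chain (-1.07, 0.0421). Also lower were Sesn3, Cdkn1b and Trib2 of the PI3K, AKT and FOXO list (-1.16 to -0.78) and Bcl9 and Nlk of the Wnt list (-0.82 and -0.98), with edgeR adjusted p of 0.0292 to 0.0392. Higher were Cd69, as given, and Bhlhe40, an effector-state factor (1.36, edgeR adjusted p = 0.0222).

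For miR-27a against control, whose libraries pair by number, the block gave 6 calls in these lists, where it called 3.07% of all genes tested. Lower were Cd69, named above, Ccr9, a gut homing receptor (-1.43, edgeR adjusted p = 0.0285), Runx1, a factor of T cell quiescence (-0.95, 0.0235), and Nlk, a kinase of the Wnt pathway (-1.07, 0.0270). Higher were Stat5b, which carries IL-7 and IL-2 signals (0.89, edgeR adjusted p = 0.0270), and Bhlhe40 (1.24, 0.0390). Without the block edgeR called none of them (adjusted p 0.121 to 0.297).

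Markers of T cells and of other cells stand beside these results as follows. With miR-24, the T cell markers summed to 3150 to 4110 CPM per library, against 3550 to 5300 CPM with the control mimic. Without the shallow control replicate 1 the control sums were 4200 to 5300 CPM, above every miR-24 library. The sums were 4130 to 4790 CPM with miR-23a and 3650 to 4110 CPM with miR-27a. In miR-24 against control, 5 of the 9 markers had a negative log2 difference (median -0.38). Cd28 averaged 1520 CPM with miR-24 and 2120 CPM with control, Cd3e 605 and 896 CPM, and Cd4 386 and 567 CPM. Cd3g (174 and 247 CPM) and Cd5 (135 and 164 CPM) also averaged lower. Thy1 (388 and 251 CPM), Cd3d (127 and 89.2 CPM) and Lck (55.4 and 44.1 CPM) averaged higher with miR-24. Cd2, the 1 marker called, was higher by 1.81 ± 0.30 on the log2 scale (edgeR adjusted p = 0.00946). Against miR-27a edgeR called 0 of the 9, and with the block 5, of which Cd3g, Cd4 and Lck were lower and Cd2 and Cd28 higher with miR-24. Class II antigen presentation genes, which B and dendritic cells express, summed to 47.6 to 174 CPM with miR-23a, 34.9 to 107 CPM with miR-24, 39.5 to 216 CPM with miR-27a and 29.9 to 105 CPM with the control mimic. Stromal and endothelial markers, of which Pecam1 is also made by T cells, summed to 42.1 to 73.5 CPM with miR-24 and 100 to 183 CPM with miR-27a, where Col3a1 and Lyve1 were at 0. Most of these sums was Pecam1 (means of 53.9 CPM with miR-24 and 131 CPM with miR-27a). S1pr1 is also expressed by endothelial cells. Cdh5, the endothelial cadherin gene, was at 0 to 0.228 CPM over all libraries, while mean Pecam1 was lower with miR-24 than with miR-27a, as S1pr1 was. Whether other cells contributed to the S1pr1 reads was not tested.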

How the data were processed

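Per the labels' protocols, libraries were made from 1 ng of RNA with NuGEN amplification kits and read once over 50 nt. The authors deposited raw read counts per gene symbol for each of the 16 libraries, with 5 summary lines that held 64.65% to 77.62% of reads and were left out. Bowtie2, TopHat, DESeq and the build mm10 are named, per the submitters' processing notes, without versions. The counter, annotation and strand setting are not given in the sources used here, so reads of overlapping genes cannot be told apart.

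Counts of the 12952 genes passing filterByExpr were scaled by TMM and fitted in R 4.3.3 with edgeR 4.0.16, group as the only term, and tested two-sided by the robust quasi-likelihood method. P-values were adjusted over all genes (Benjamini-Hochberg, threshold 0.05). The ± after a log2 difference is a standard error worked back from the test, the absolute difference over the square root of the F statistic. CPM were computed on TMM-scaled sizes and log2-CPM with a prior count of 2. Relations used limma 3.58.1. The scripts were tested on simulated data. Intervals cover counting error only.

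Replicate numbers counted as pairing 2 groups where all 4 correlations of same-numbered deviations, over genes above a mean log2-CPM of 5, passed 0.1. This held for miR-27a with control (0.198 to 0.611), miR-24 with miR-23a (0.350 to 0.671) and miR-23a with miR-27a (0.257 to 0.655). In these the block changed no call of a member.

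The members and all gene lists were chosen with earlier results of these data known. Named are the 9 members, Cd69, Bach2, Id3, Foxp1 and Pik3ip1, up to 4 further called genes of each pathway list and the 5 genes most like Tcf7 and Klf2, without predicted and small RNA genes and with a mean log2-CPM of at least 3. A further gene that the rule names is not reported here. Cd2 was named after its value was seen. Alternatives were the replicate block, DESeq2 1.42.0, its size factors, no filter, limma voom with sample weights, 2 groups alone and single libraries left out.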

Additional observations from a re-analysis of the deposited data

Results flagged for a closer look

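Among 36 groups of 4 libraries (9 genes in 4 groups), 2 held a library far from the other 3 by Dixon's test at the 95% level, which chance alone gives in about 1 group in 20. Lef1 was low in miR-27a replicate 3, with 118 CPM where the next lowest library of the group had 231 CPM (gap over range 0.83). Ccr7 was high in control replicate 2, with 959 CPM where the next highest control library had 260 CPM (gap over range 0.904). The libraries numbered 2 were the highest for Ccr7 in all 4 groups.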

How the results depend on the processing

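The number of members called in miR-24 against control was 4 with the replicate block and without the shallow control library and 1 with those 2 groups alone. In miR-24 against miR-27a it was 4 with limma voom and sample weights and 1 with the 2 groups alone, and in miR-23a against miR-27a it was 1 with limma voom. With 1 library left out, with or without the block, these counts ranged from 1 to 5 in miR-24 against control, 1 to 3 in miR-24 against miR-27a, 0 to 1 in miR-23a against miR-27a and 0 to 2 in miR-27a against control, and from 0 to 4 for members following Klf2. Members following Tcf7 numbered 0 with the replicate block and 0 without the 2 farthest libraries, and 1 followed Klf2 without the group term. The cause of these moves was not tested.

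Directions turned only for differences that were not called. With the replicate block, the log2 difference was 0.02 for Ccr7 in miR-23a against control, 0.04 for Il7r in miR-24 against control and 0.10 for Ccr7 in miR-24 against miR-27a, and without the shallow library besides, -0.10 for Tcf7 in miR-23a against control and 0.03 and 0.11 for the last 2. DESeq2, and likewise its size factors in edgeR, gave 0.03 for Lef1 in miR-24 against control and 0.05 for Ccr7 in miR-24 against miR-27a, where no filter gave 0.03, the 2 groups alone 0.02 and leaving out Rn45s 0.01. Limma voom gave -0.30 for Tcf7 in miR-23a against control and -0.28, -0.24 and -0.22 for Tcf7, Klf2 and Ccr7 in miR-23a against miR-27a. With 1 library left out, with or without the block, Ccr7 ranged from -0.55 to 0.71 in miR-23a, -1.03 to 0.48 in miR-24 and -1.15 to 0.47 in miR-27a against control, -0.50 to 0.60 in miR-24 against miR-27a and -0.02 to 0.85 in miR-23a against miR-27a. Tcf7 ranged from -0.29 to 0.44 in miR-23a and -0.55 to 0.08 in miR-27a against control and -0.03 to 0.66 in miR-23a against miR-27a. Against control, Foxo1 ranged from -0.44 to 0.16 with miR-23a, and Il7r from -0.20 to 0.24 and Lef1 from -0.16 to 0.10 with miR-24. In miR-24 against miR-27a, Foxo1 ranged from -0.30 to 0.02, Klf3 from -0.41 to 0.19 and Satb1 from -0.04 to 0.23. Klf3 ranged from -0.04 to 0.48 in miR-24 against miR-23a, and Klf2 from -0.12 to 0.31 and S1pr1 from -0.51 to 0.00 in miR-23a against miR-27a.

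Same-numbered correlations did not all pass 0.1 for miR-23a (lowest -0.121) or miR-24 (0.0304) with control, or for miR-24 with miR-27a (-0.0072). In each of these comparisons 3 of the 4 correlations passed, and the block is an alternative there. It called 55, 591 and 572 genes in these, where the group term alone called 17, 110 and 114. In miR-27a against control, miR-24 against miR-23a and miR-23a against miR-27a it called 398, 697 and 382, where the group term alone called 22, 142 and 71. The block changed no call of a member other than those of Foxo1 and Il7r given above. In miR-23a, miR-24 and miR-27a against control DESeq2 called 44, 225 and 154 genes, and the 2 groups alone 2, 34 and 16. In miR-24 against miR-27a DESeq2 called 260, limma voom 1012, no filter 71 and the 2 groups alone 21. In miR-24 against miR-23a DESeq2 called 307, limma voom 528 and the 2 groups alone 63, and in miR-23a against miR-27a they called 176, 364 and 37. The fits without 1 library under the block and those without Rn45s were chosen after seeing the data. Depth limits Klf2 and S1pr1 in control replicate 1, which rest on 3 reads each.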
